A study of Mus musculus with 42 samples.

Results

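The transcriptome of hippocampal neurons that had been exposed to small extracellular vesicles (EVs) from BDNF-treated neurons was set against that of neurons exposed to EVs from vehicle-treated neurons. The members are the 3 BDNF EV libraries and the 3 control EV libraries of the hippocampal gene count table, 6 of 18 hippocampal libraries and of 42 samples in the series, chosen by their labels. All genes were examined: 17609 of 55471 entries passed the filter on low counts and were tested. The donors were primary cortical neurons of NMRI mouse embryos at embryonic day 16, which about a week after plating received either vehicle or brain-derived neurotrophic factor (BDNF) at 50 ng/ml for 20 min and were then washed. Their EVs were isolated 16 h later and put on primary hippocampal neurons for 24 h. The hippocampal neurons were of the same strain and embryonic age, and had been plated with horse serum and then kept in maintenance medium with B27 supplement. The same table holds 6 control libraries and 6 libraries of neurons given BDNF directly (50 ng/ml for 20 min). The labels give sets numbered 1 to 3 in each EV group and 1 to 6 in the other groups, with set 1 in batch a, sets 2 and 3 in batch b, and the remaining sets in batches c and d, without saying what a batch is. The EV dose, the purity of the EVs and the time from direct BDNF to lysis were not stated in the sources used here. No label says that replicates are separate cultures, so the spread behind the p-values is that between these libraries, which may be technical only.

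BDNF is a secreted neurotrophin that binds the receptor tyrosine kinase TrkB, encoded by Ntrk2, and signals through ERK, phosphoinositide 3-kinase and phospholipase C. In neurons it induces immediate early genes such as Fos within minutes, then late genes such as Arc, Vgf and neuropeptide precursors, and it promotes the growth of dendrites and the maturation of synapses. Small EVs are membrane vesicles that carry proteins and RNA, miRNAs among them, from a donor to a recipient cell. The question of the comparison, from the study's title, is what the vesicles of BDNF-treated neurons do to recipient neurons through their miRNAs.

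The immediate early genes and the unfolded protein and integrated stress response genes, 2 groups described below, are known for elements in their promoters, so the start regions of 5 members, picked with their values in view, are shown first. Sequences are from RefSeq in GRCm38.p6, each 300 bases written 5′ to 3′ along the gene's strand, from 250 bases before to 50 after the start. Capitals mark 1 motif per gene on either strand: the core of the cAMP response element (CRE core, TGACG), which CREB family factors bind, in Fos and Npas4; the endoplasmic reticulum stress element (ERSE, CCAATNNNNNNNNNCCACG), known for ATF6, in Hspa5; and the C/EBP-ATF response element (CARE, TGATGNAA), known for ATF4, in Asns and Trib3. Where the capitals read CGTCA or TTACATCA, the motif lies on the other strand. Other motifs in the same window are left in lower case.

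Fos (chr12:85473640-85473939, plus strand): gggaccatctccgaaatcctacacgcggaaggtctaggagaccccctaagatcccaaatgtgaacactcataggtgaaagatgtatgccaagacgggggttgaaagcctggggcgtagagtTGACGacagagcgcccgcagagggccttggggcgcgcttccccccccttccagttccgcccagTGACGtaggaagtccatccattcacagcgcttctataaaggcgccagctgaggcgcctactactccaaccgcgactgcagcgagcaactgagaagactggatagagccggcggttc
Npas4 (chr19:4989922-4990221, minus strand): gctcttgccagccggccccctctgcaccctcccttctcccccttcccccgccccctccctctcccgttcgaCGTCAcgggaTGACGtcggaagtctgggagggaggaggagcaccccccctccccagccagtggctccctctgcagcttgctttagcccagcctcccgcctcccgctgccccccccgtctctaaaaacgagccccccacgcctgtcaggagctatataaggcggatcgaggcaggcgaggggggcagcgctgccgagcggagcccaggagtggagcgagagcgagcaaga
Hspa5 (chr2:34771840-34772139, plus strand): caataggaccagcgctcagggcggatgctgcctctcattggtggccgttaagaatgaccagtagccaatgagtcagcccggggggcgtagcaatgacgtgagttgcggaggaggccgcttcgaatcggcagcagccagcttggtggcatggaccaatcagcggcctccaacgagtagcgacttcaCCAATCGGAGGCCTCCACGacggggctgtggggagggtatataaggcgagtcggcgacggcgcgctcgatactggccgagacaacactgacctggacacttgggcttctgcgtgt
Asns (chr6:7693160-7693459, minus strand): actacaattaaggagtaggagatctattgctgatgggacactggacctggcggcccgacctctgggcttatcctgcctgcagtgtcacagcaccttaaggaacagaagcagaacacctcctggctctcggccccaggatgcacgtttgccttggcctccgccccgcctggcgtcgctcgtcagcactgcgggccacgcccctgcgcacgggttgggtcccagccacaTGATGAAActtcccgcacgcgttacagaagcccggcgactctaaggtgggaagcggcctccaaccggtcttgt
Trib3 (chr2:152344011-152344310, minus strand): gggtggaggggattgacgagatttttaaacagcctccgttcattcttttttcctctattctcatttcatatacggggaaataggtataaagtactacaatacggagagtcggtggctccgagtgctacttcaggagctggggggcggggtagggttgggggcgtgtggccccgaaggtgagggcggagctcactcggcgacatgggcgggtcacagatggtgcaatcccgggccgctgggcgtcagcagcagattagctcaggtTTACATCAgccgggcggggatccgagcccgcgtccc

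Each motif was counted on both strands, also where it overlapped another. The CRE core was present in 14 of the 18 immediate early genes with a promoter entry (77.8%), against 33.8% of 12060 tested genes with an entry and 23.05% of all 27025 entries. The ERSE was present in 6 of 24 unfolded protein and integrated stress response genes (Calr, Canx, Creld2, Hsp90b1, Hspa5 and Pdia6), in 0.174% of tested genes and in 0.137% of all entries. The CARE was present in 5 of those 24 (Asns, Chac1, Herpud1, Slc7a11 and Trib3), in 2.81% of tested genes and in 4.51% of all entries. These are matches of letters, and binding was not measured here.

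The 6 EV libraries held 17927098 to 24350919 counts, within the range of all 18 libraries (16274937 to 36835780), and mitochondrially encoded genes took 1.09% to 1.28% of them. Levels below are in CPM, the read counts scaled to a common library size with TMM factors, and they are listed in the order of sets 1, 2 and 3. The hippocampal label was checked against markers over the 6 EV libraries. The pan-neuronal gene Map2 lay at 1822 to 2122 CPM, the glutamate transporter gene Slc17a7 at 206 to 232, Prox1, a marker of dentate granule neurons, at 108 to 119, and Zbtb20, a hippocampal transcription factor, at 451 to 631. Gad1 of inhibitory neurons lay at 165 to 271 CPM. The cultures also held astrocyte RNA, with Gfap at 607 to 806 CPM, and RNA of the oligodendrocyte lineage, with Olig1 at 328 to 384, Pdgfra of its precursors at 224 to 264 and the myelin gene Mbp at 12.2 to 17.5 CPM. Csf1r of microglia lay at 8.18 to 9.73 CPM, and Ptprc of the same marker list at 0.180 to 0.619. Pecam1 of endothelium lay at 0.113 to 1.23 CPM, while Kdr and Rgs5 of the vascular and fibroblast list lay at 2.79 to 7.59 and 30.3 to 47.1. In bulk RNA, fewer cells of a type and less RNA per cell cannot be told apart.

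No gene passed the test between BDNF EV and control EV neurons. With edgeR's quasi-likelihood test and Benjamini-Hochberg adjustment, 0 of 17609 genes (0%) had an adjusted p under 0.05, and DESeq2 and limma voom called 0 as well. An unadjusted p under 0.05 was reached by 1475 genes (8.38%), 602 of them higher (3.42%) and 873 lower (4.96%) with BDNF EVs. That number was 625 without control EV library 2, 815 without BDNF EV library 2, 524 with no batch term and 2424 of 17389 genes in batch b alone. The median log2 fold change over all genes was −0.00, and 50.4% of genes lay below 0. For the median gene the 95% interval reached 0.19 log2 units to each side, and for 16045 genes (91.1%) it lay wholly within a 2-fold change in either direction. For 12647 genes (71.8%) it lay within 0.5 log2 units of 0. The fitted change was larger than 2-fold for 101 genes, of which 18 had a mean of at least 2 CPM over the EV libraries. The count of calls changed most with 2 choices. Without the filter on low counts 167 genes were called (67 higher and 100 lower of 35958 tested), in a fit that set each gene's spread to the common trend. Within batch b alone, 118 were called, which is described at the end of the comparison.

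Ifi203, a gene of the interferon-inducible p200 family at chr1:173920400-173942866, lay at 1.46, 4.99 and 4.32 CPM with control EVs and at 1.17, 1.64 and 1.89 CPM with BDNF EVs. The control EV libraries of batch b stood above the other 4 libraries, and the groups overlapped through control EV library 1. The log2 fold change was −1.17 ± 0.21 (SE; adjusted p = 0.120 by edgeR), with −0.30 in batch a and −1.40 in batch b. Without BDNF EV library 1 its adjusted p was 0.0250, the only call of that fit, with a range over the alternatives of 8.09e-05 to 0.999991. The genes of this family are near copies of each other, so reads may be shared among them.

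The other genes that were lower with the smallest p were not called either, with adjusted p between 0.311 and 0.317. Ptgs2, the activity-induced cyclooxygenase COX-2 at chr1:150100031-150108234, had 0.281, 7.30 and 3.47 CPM with control EVs and 0.292, 0.861 and 1.14 CPM with BDNF EVs. The difference lay in batch b (−2.42) and was 0.04 in batch a, and the log2 fold change of −2.22 ± 0.46 became −1.59 without control EV library 2. Ero1l, the oxidase that reoxidises protein disulphide isomerase in the endoplasmic reticulum, had 17.8, 27.7 and 22.1 CPM with control EVs against 15.4, 18.3 and 15.9 CPM (−0.44 ± 0.10). Gfpt1, the rate-limiting enzyme of the hexosamine pathway, had 156, 192 and 178 CPM against 145, 149 and 148 CPM (−0.24 ± 0.05), and its groups did not overlap. Ccdc186 (−0.37 ± 0.08), linked with dense core vesicles, and the Golgi genes Golph3l (−0.34 ± 0.08) and Acbd3 (−0.28 ± 0.06) overlapped between groups.

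Chrm2, the M2 muscarinic acetylcholine receptor, did not overlap between groups. It had 3.09, 5.76 and 4.41 CPM with control EVs and 1.801, 2.34 and 2.70 CPM with BDNF EVs (−0.95 ± 0.22). The helicase-like factor gene Hltf was lower by −0.35 ± 0.08. Over all genes, 1595 (9.06%) had groups that did not overlap, 773 with BDNF EVs higher (4.39%) and 822 lower (4.67%). Control EV library 2 held the highest level of the 6 in Ptgs2, Ifi203, Ero1l, Gfpt1 and Chrm2.

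Among the genes with higher values, Ppia, which encodes the prolyl isomerase cyclophilin A at chr11:6415867-6419817, had the smallest p. It had 21.4, 22.7 and 18.1 CPM with control EVs and 27.0, 26.4 and 29.3 CPM with BDNF EVs. All 3 BDNF EV libraries lay above all 3 control EV libraries, and within the 25.4 to 30.01 CPM of the 6 control libraries. The log2 fold change was 0.41 ± 0.09 (adjusted p = 0.311), with 0.33 in batch a and 0.45 in batch b. Ppia has many processed pseudogenes, so its counts depend on how shared reads were assigned.

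Tuba1a, the main alpha tubulin of growing neurons at chr15:98949847-98953501, had 836, 669 and 756 CPM with control EVs and 937, 921 and 922 CPM with BDNF EVs, again without overlap (0.30 ± 0.08, adjusted p = 0.349). Its near-identical relatives can share its reads. Lin28b, which blocks the maturation of let-7 miRNAs, had 1.57, 1.59 and 1.53 CPM against 2.19, 2.67 and 2.46 CPM (0.64 ± 0.17, adjusted p = 0.360). Ptms, the parathymosin gene, had 665, 638 and 680 CPM against 737, 787 and 771 CPM (0.21 ± 0.06). In Lin28b and Ptms the groups did not overlap either, and the values within each group were close. The 6 control libraries spanned 788 to 1029 CPM for Tuba1a, and the BDNF EV libraries lay within that range. For Lin28b (1.32 to 2.02 CPM in controls) and Ptms (638 to 733 CPM) the BDNF EV libraries lay above it.

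The ligand genes Wnt7a and Wnt7b, known to promote synapse formation and dendrite growth, were also among those with the smallest p in this direction. Wnt7a had 40.9, 29.1 and 30.5 CPM with control EVs and 42.0, 39.1 and 39.7 CPM with BDNF EVs (0.28 ± 0.07). Wnt7b had 81.4, 65.6 and 67.3 CPM against 90.01, 78.7 and 80.5 CPM (0.22 ± 0.05). For both, the group ranges overlapped because the control EV library of batch a was high, and each BDNF EV library lay above the control EV library of its set. The control libraries of sets 1 to 3 had 41.0, 33.5 and 29.6 CPM of Wnt7a and 89.9, 78.7 and 75.2 CPM of Wnt7b. Against controls, Wnt7b was at 0.01 with BDNF EVs and at −0.21 with control EVs, neither called. Syt6 (0.44 ± 0.11), a synaptotagmin, and Insm1 (0.29 ± 0.08), a transcription factor of newborn neurons, overlapped between groups, and Trp53i11 (0.34 ± 0.09) did not.

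**Figure D1:**
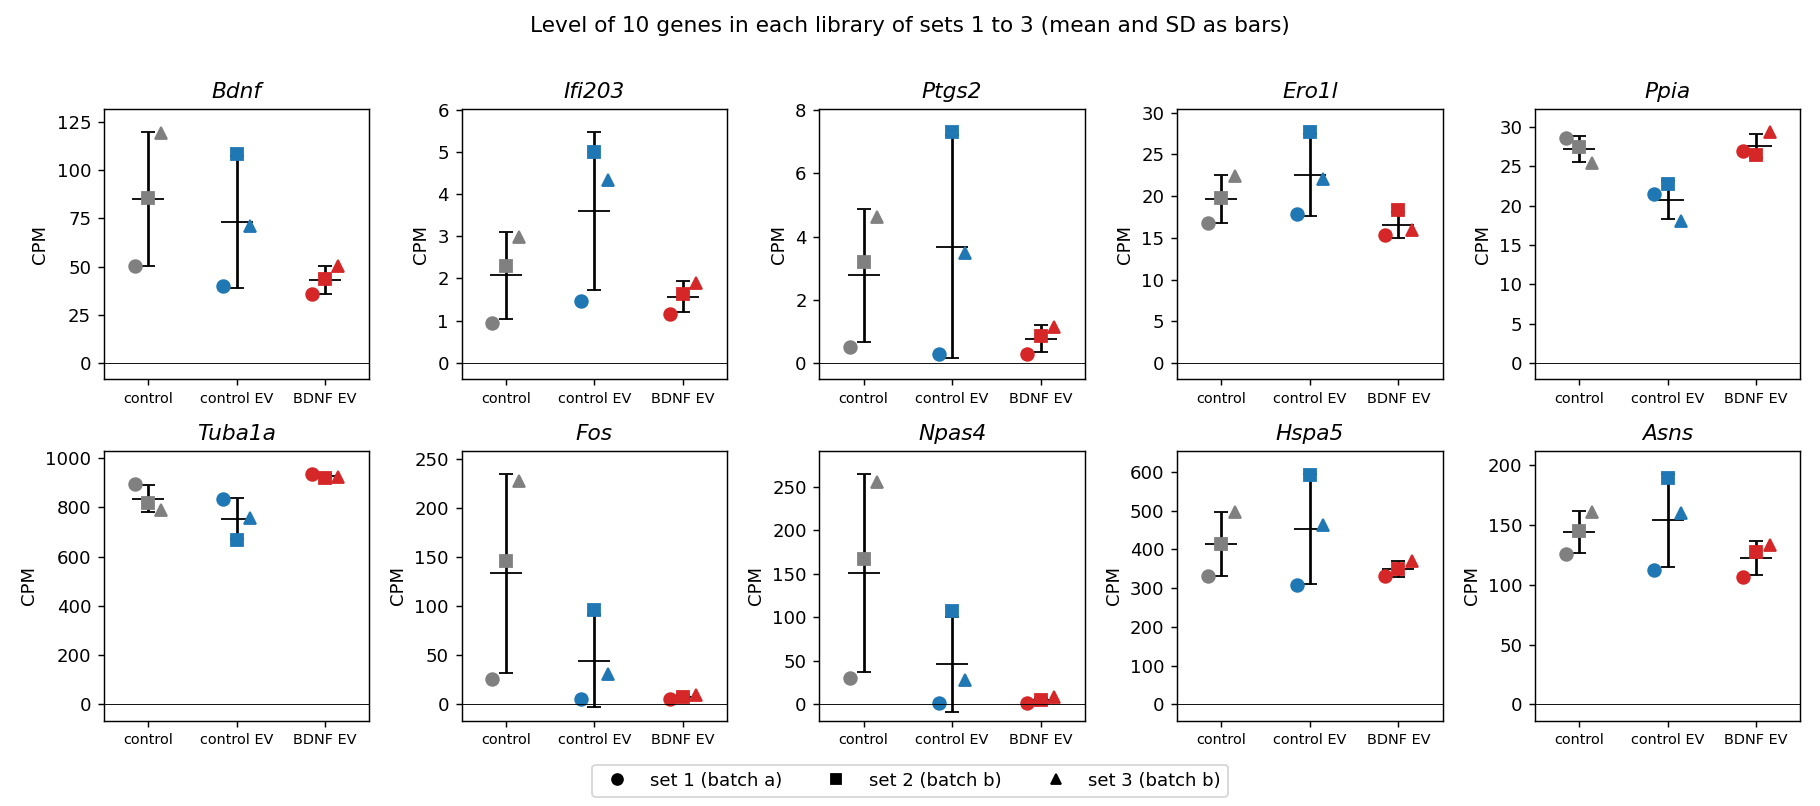
Level in CPM (linear axis, each panel with its own scale) of 10 genes in the libraries of sets 1 to 3, for control, control EV and BDNF EV neurons, with the group mean as a dash and the SD as a bar (n = 3). Ppia and Tuba1a lie higher in all 3 BDNF EV libraries than in the control EV libraries, while in Fos, Npas4, Hspa5, Ptgs2 and Asns control EV library 2 stands far above control EV library 1.

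Immediate early genes are the transcription factor and effector genes that calcium and ERK signalling switch on without new protein. Of the 22 tested, 21 were lower and 1 was higher in BDNF EV neurons, none called, against 50.4% of all genes that were lower. Their median log2 fold change was −0.56, beside −0.00 over all genes, and 5 (Npas4, Fos, Nr4a1, Atf3 and Egr4) were lower at an unadjusted p under 0.05, against 4.96% of all genes. The values differed widely between libraries of 1 group. Fos, at chr12:85473890-85477274, had 5.79, 96.1 and 31.0 CPM with control EVs and 5.40, 7.75 and 9.84 CPM with BDNF EVs, and 25.9, 146 and 228 CPM in the control libraries of the same sets. Only control EV libraries 2 and 3 stood above the BDNF EV libraries, and the control libraries of all 3 sets stood above both EV libraries of their set. The log2 fold change of Fos was −2.34 ± 0.91 (95% interval −4.34 to −0.35, adjusted p = 0.561), with −0.10 in batch a, −2.85 in batch b and −1.41 without control EV library 2.

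Npas4, an activity-dependent transcription factor of inhibitory synapse development, had 1.91, 107 and 28.5 CPM with control EVs and 1.70, 4.55 and 7.94 CPM with BDNF EVs. Its log2 fold change was −3.12 ± 1.07 (adjusted p = 0.511), with −0.16 in batch a and −3.45 in batch b, and −1.87 without control EV library 2. Atf3 had 1.01, 18.1 and 12.0 CPM against 1.07, 3.12 and 5.39 CPM, Nr4a1 10.3, 80.9 and 32.1 CPM against 8.08, 11.3 and 14.0 CPM. In each of these genes the groups overlapped through control EV library 1, which lay near the BDNF EV library of its set. The member with a higher value was Fosl1, by 0.06.

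Control EV library 2 held the highest level of the 6 EV libraries in 20 of 22 immediate early genes, beside 23.3% of all genes. Without it, 20 of 22 were still lower, their median was −0.30 and 0 had an unadjusted p under 0.05. That count was also 0 without BDNF EV library 2, 2 without BDNF EV library 3 and 8 without control EV library 1. Within batch a the split was 13 higher and 9 lower with a median of 0.03, and within batch b 1 higher and 21 lower with a median of −0.76. Set against the control library of the same set, the median over the list was −0.37, −0.06 and −1.004 in control EV libraries 1 to 3 and −0.23, −1.13 and −1.37 in the BDNF EV libraries. Every EV library lay below the control library of its set by this median.

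Late activity and BDNF response genes held 24 tested members, of which 19 were lower and 5 higher with BDNF EVs, with a median of −0.37 and 0 called. At an unadjusted p under 0.05, 7 were lower and 1, the Nogo receptor partner gene Lingo1, was higher (0.20 ± 0.07). Over all genes 4.96% were lower and 3.42% higher at that p, and 50.4% were lower at any p. Bdnf itself, at chr2:109674700-109727043, had 39.8, 109 and 71.1 CPM with control EVs and 35.5, 43.4 and 50.4 CPM with BDNF EVs (−0.71 ± 0.29, adjusted p = 0.576). The difference was −0.16 in batch a and −0.94 in batch b. The prohormone convertase gene Pcsk1 had 10.3, 31.9 and 18.1 CPM against 10.3, 11.6 and 11.5 CPM (−0.81 ± 0.35), and Scg2, a secretogranin, 103, 243 and 153 CPM against 101, 109 and 112 CPM (−0.60 ± 0.24). Arc, the dendritic effector gene, had 2.36, 6.79 and 3.15 CPM against 1.90, 3.65 and 3.12 CPM (−0.48). In Pcsk1 and Scg2 the libraries of set 1 were nearly level, and in all 4 genes control EV library 2 was the highest of the 6.

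Without control EV library 2 the median of the late genes was −0.08, 1 was lower at an unadjusted p under 0.05, and the log2 difference was −0.44 for Bdnf and −0.05 for Arc. The count was 2 without BDNF EV library 2 or without BDNF EV library 3, and 11 without control EV library 3. The receptor gene Ntrk2 had 591, 619 and 525 CPM with control EVs and 573, 493 and 484 CPM with BDNF EVs (−0.17 ± 0.06, adjusted p = 0.498), and −0.08 without control EV library 2. Over the 14 tested neurotrophin and receptor genes 7 were higher and 7 lower, with a median of −0.00. Of 15 ERK pathway feedback genes, the phosphatase and Sprouty genes that dampen the cascade, 5 were higher and 10 lower, with a median of −0.09.

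The unfolded protein and integrated stress response genes encode the chaperones of the endoplasmic reticulum and the targets of ATF4. Of 27 tested, 26 were lower with BDNF EVs, against 50.4% of all genes, and Pdia6 was higher by 0.00, with a median of −0.28. None was called, and 15 were lower at an unadjusted p under 0.05, against 4.96% of all genes. Hspa5, the chaperone BiP whose ERSE is shown above, had 308, 591 and 462 CPM with control EVs and 330, 350 and 371 CPM with BDNF EVs (−0.34 ± 0.14, adjusted p = 0.582). Asns, asparagine synthetase, whose start region holds a CARE, had 113, 190 and 160 CPM against 106, 127 and 134 CPM (−0.31 ± 0.09, adjusted p = 0.423). Trib3, a pseudokinase induced by ATF4, had 1.35, 10.8 and 7.47 CPM against 1.17, 3.53 and 4.40 CPM (−1.07 ± 0.43, adjusted p = 0.561). In all 3 the BDNF EV libraries of batch b lay below both control EV libraries of batch b, while in batch a the libraries were close, at 0.10 for Hspa5, −0.08 for Asns and −0.19 for Trib3.

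The other members with larger values included the cystine transporter gene Slc7a11 (−0.81 ± 0.30), the glutathione-degrading enzyme gene Chac1 (−0.75 ± 0.25), Ddit3, which encodes CHOP (−0.72 ± 0.23), Atf4 (−0.32 ± 0.11) and Xbp1 (−0.31 ± 0.09). The calreticulin gene Calr was at −0.01. Control EV library 2 was the highest of the 6 EV libraries in 27 of 27 members, beside 23.3% of all genes. Without it the median was −0.14, 23 were lower, and 2 had an unadjusted p under 0.05. That count was 4 without BDNF EV library 2 and 9 without BDNF EV library 3. In batch a 13 were higher and 14 lower with a median of −0.01, and in batch b 0 were higher and 27 lower with a median of −0.38. Relative to the same-set control, the list's median was −0.08, 0.30 and −0.12 in control EV libraries 1 to 3, and −0.09, −0.24 and −0.29 in the BDNF EV libraries. Control EV library 2 was the sole EV library above its control.

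Cholesterol biosynthesis genes, which make the sterols of the plasma and synaptic membranes, lay in the other direction. Of 24 tested, 23 were higher with BDNF EVs, against 49.6% of all genes, and Ebp was lower at −0.10, with a median of 0.14. None was called, and 7 were higher at an unadjusted p under 0.05, against 3.42% of all genes. Fdps, farnesyl diphosphate synthase, had 21.9, 13.5 and 17.6 CPM with control EVs and 22.7, 21.1 and 23.9 CPM with BDNF EVs (0.36 ± 0.11, adjusted p = 0.441). Mvk, mevalonate kinase, had 58.0, 36.8 and 44.6 CPM against 60.6, 54.9 and 53.8 CPM (0.29 ± 0.10). Control EV library 2 held the lowest level in 19 of 24 of them, beside 22.6% of all genes. Without it the median was 0.08 and 0 had an unadjusted p under 0.05. That count was 17 without control EV library 1 and 4 without BDNF EV library 2. The median was 0.02 in batch a, with 16 higher and 8 lower, and 0.21 in batch b, with 22 higher and 2 lower.

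**Figure D2:**
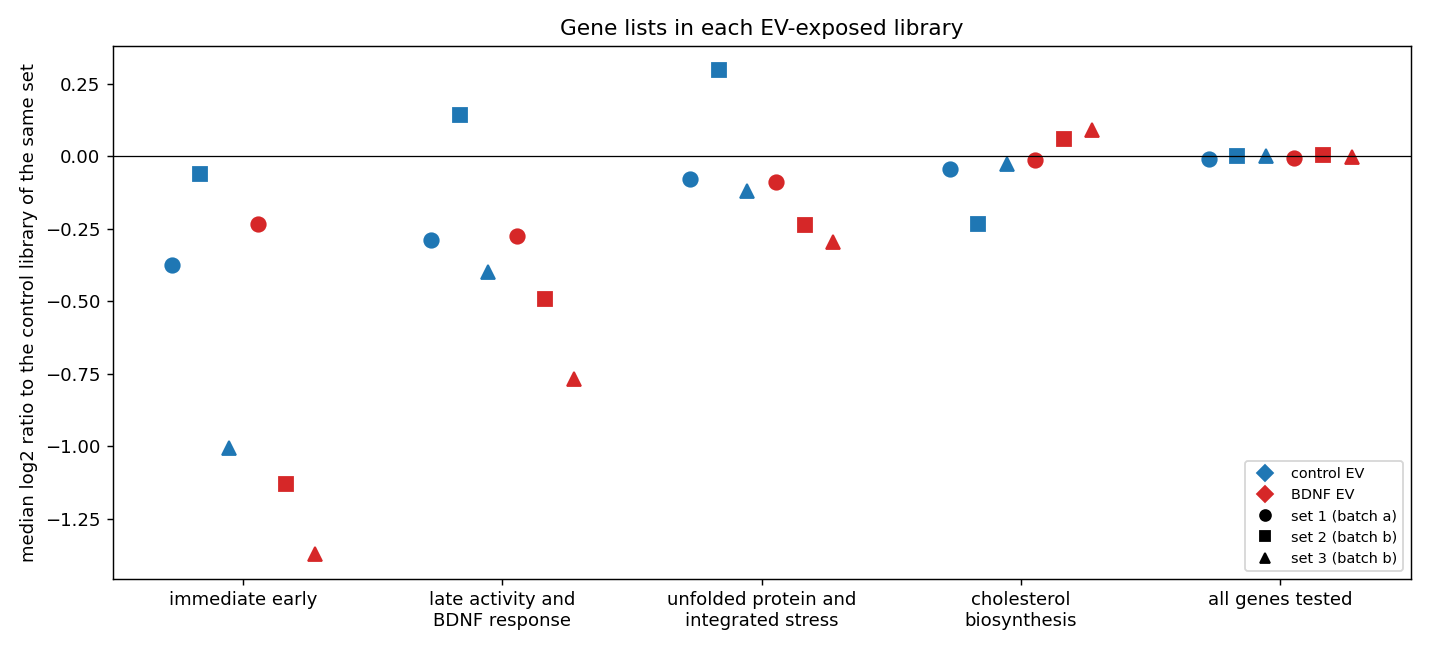
Median over the genes of 4 lists, and over all 17609 genes tested, of the log2 ratio of each EV-exposed library to the control library of the same set (blue, control EV; red, BDNF EV; marker shape, set). The median over all genes lies near 0, the immediate early genes of BDNF EV libraries 2 and 3 at −1.13 and −1.37, and the stress response genes of control EV library 2 at 0.30.

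Most inflammatory, interferon and neuropeptide genes had lower values with BDNF EVs, against 50.4% of all genes, without a call. Of 15 NF-kB and inflammatory genes 13 were lower, with a median of −0.37 (−0.24 without control EV library 2), led by the chemokine gene Cxcl2 at 0, 2.26 and 1.26 CPM with control EVs and 0, 0.369 and 0.473 CPM with BDNF EVs. Of 20 interferon response genes 14 were lower, with a median of −0.22 (−0.13 without control EV library 2, −0.12 without control EV library 3). Of 19 neuropeptide precursor genes 12 were lower, with a median of −0.37 that was −0.05 without control EV library 2 and −0.15 without BDNF EV library 2. None of the 3 lists held a call. The summed level of the microglia and macrophage markers, with 7 of 20 tested, was 28.2 to 30.4 CPM in the control EV libraries and 28.4 to 29.8 CPM in the BDNF EV libraries.

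Dendrite growth and synapse maturation are named in the study's title, and the lists of synaptic and dendritic genes had medians close to that of all genes. Of 29 glutamate receptor and auxiliary subunit genes 21 were higher and 8 lower with a median of 0.06, of 30 postsynaptic scaffold and adhesion genes 18 and 12 with 0.05, and of 33 presynaptic genes 21 and 12 with 0.03. Of 33 dendrite growth and cytoskeleton genes 21 were higher and 12 lower with a median of 0.02, none called in any of these lists. At an unadjusted p under 0.05, 5 of these 33 were higher and 2 lower, against 3.42% and 4.96% of all genes. Those counts were 1 and 1 without control EV library 2, and 8 and 1 without control EV library 3. They were 2 and 1 for the glutamate receptor list, 2 and 1 for the postsynaptic list and 0 and 0 for the presynaptic list. Among the members of these lists with higher values, Tubb2b, a beta tubulin of growing neurons that can share reads with Tubb2a, was at 0.21. The AMPA receptor subunit gene Gria4 was at 0.20 ± 0.06. The members that were lower at an unadjusted p under 0.05, counted above, are not named here. Neurod2, a transcription factor of excitatory neurons, belongs to the list of excitatory markers and not to these lists. Its level was 114, 108 and 123 CPM with control EVs and 134, 156 and 141 CPM with BDNF EVs (0.32 ± 0.08, adjusted p = 0.402), without overlap.

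The summed markers of each cell type overlapped between the groups. The summed excitatory markers spanned 3134 to 3307 CPM with control EVs and 3187 to 3360 CPM with BDNF EVs, inhibitory markers 1737 to 2650 and 1712 to 2642 CPM, and astrocyte markers 6027 to 6971 and 5864 to 6791 CPM. Within the astrocyte list the members with the smallest p lay in opposite directions, and neither was called. Fabp7, a fatty acid binding protein gene of radial glia and astrocytes, had 1051, 840 and 924 CPM with control EVs and 1086, 1012 and 1180 CPM with BDNF EVs (0.22 ± 0.06, adjusted p = 0.423), and the groups overlapped. Gfap had 763, 806 and 638 CPM against 635, 622 and 607 CPM (−0.24 ± 0.08, adjusted p = 0.489). It was 1 of 3 genes, among 20 tested astrocyte genes, whose groups did not overlap, all lower with BDNF EVs. Over all genes 4.67% were lower and 4.39% higher without overlap. Oligodendrocyte lineage markers summed to 1157 to 1217 and 1122 to 1202 CPM, with 4 of 17 higher. Vascular and fibroblast markers summed to 437 to 581 and 456 to 538 CPM, with 3 of 17 higher and a median of −0.12, which was −0.04 without control EV library 2 and −0.22 without control EV library 3. Erythrocyte genes stayed under 1 CPM in sum, 0 of 10 were tested, and Hba-a2, Hbb-bt, Hbb-y, Hba-x and Ahsp were at 0 in all EV libraries. The part of cell composition in the differences above was not tested.

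Housekeeping groups and the genes of EV and miRNA biology gave medians near that of all genes. Of 28 progenitor and proliferation genes 22 were higher with a median of 0.07, of 33 nuclear oxidative phosphorylation genes 29 were higher with 0.04, and of 37 cytosolic ribosomal protein genes 21 with 0.01. The 27 glycolysis and hypoxia entries had a median of 0.03, with 15 higher. The 7 mitochondrially encoded genes that were not at 0 were all higher, with a median of 0.10 (0.03 without control EV library 3). Of 26 EV biogenesis genes 16 were higher and 10 lower with a median of 0.03. Of 19 miRNA processing genes 7 were higher and 12 lower with a median of −0.00, and Tarbp2, a partner of Dicer, had 14.2, 15.5 and 13.8 CPM with control EVs and 16.4, 17.8 and 17.6 CPM with BDNF EVs (0.26 ± 0.08). Slit2 and Slit3, the guidance ligand genes that host miR-218, were at −0.22 ± 0.07 and −0.11, and Fgf12, which hosts miR-690, at 0.01, none called.

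**Figure D3:**
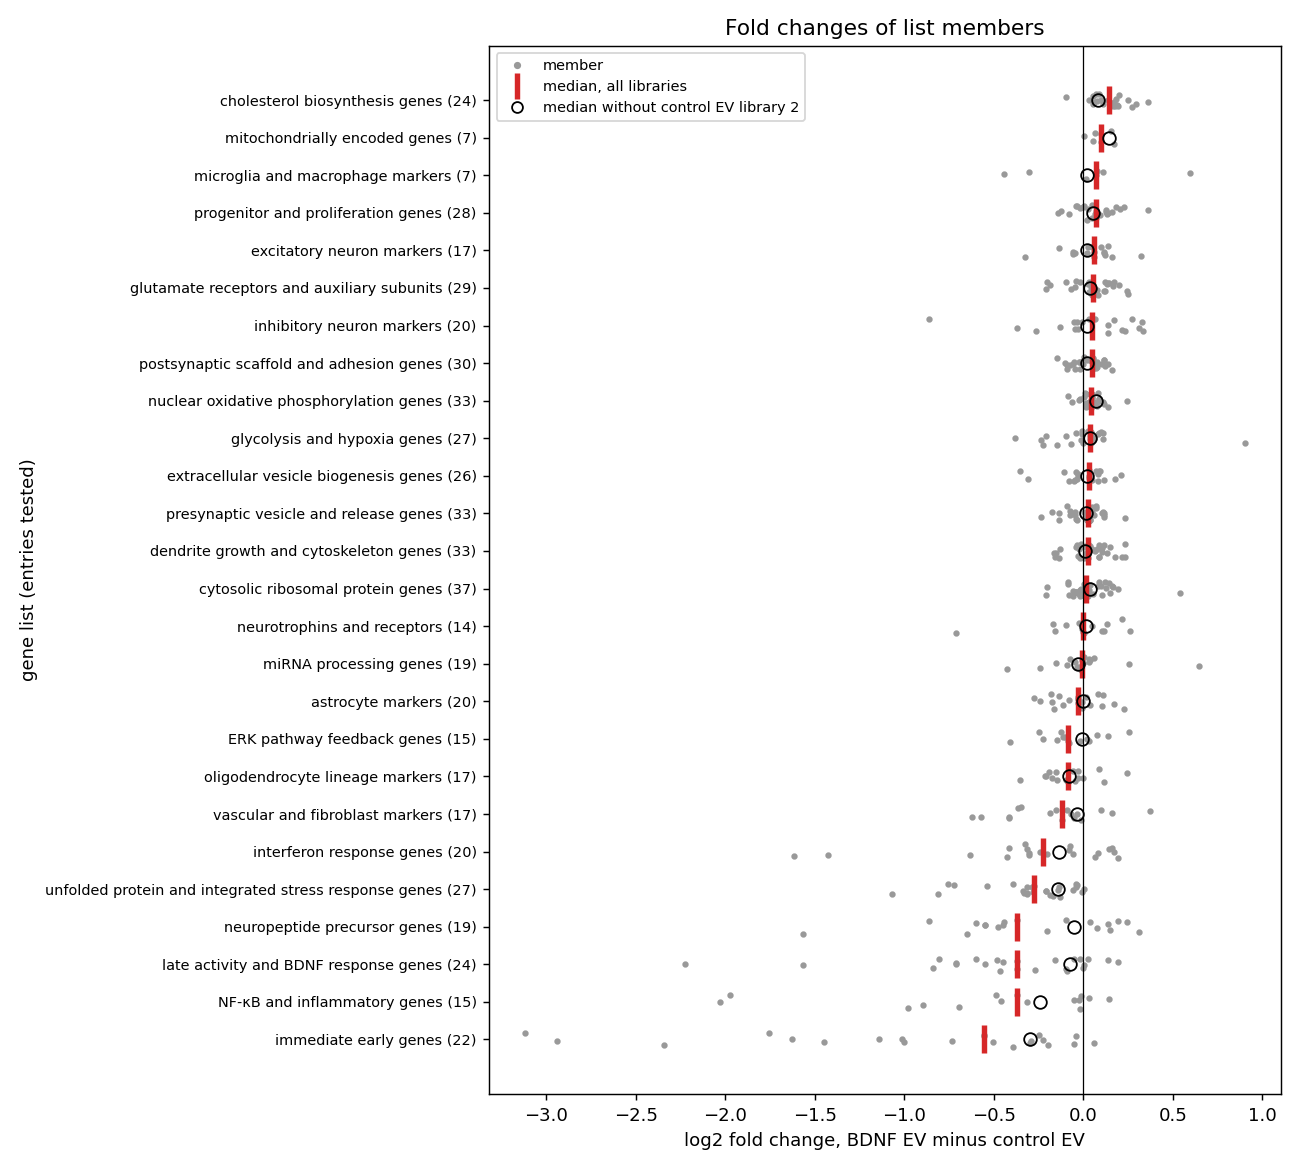
Log2 fold change (BDNF EV minus control EV) of each tested member of 26 gene lists (grey points), with the median over all libraries as a red bar and the median without control EV library 2 as an open circle. The lists with the lowest medians are the immediate early, NF-kB, late activity, neuropeptide, stress response and interferon genes, and each of those medians lies nearer 0 without that library.

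Within batch b, with 2 libraries against 2 and the control and direct BDNF libraries of the same batch in the fit, 118 of 17389 genes were called, 23 higher (0.132%) and 95 lower (0.546%). Genes called lower there included Ifi203 (−1.40 ± 0.20, adjusted p = 0.0153), Xbp1 (−0.43 ± 0.07, adjusted p = 0.0328), Trib3 (−1.20 ± 0.20), Asns (−0.42 ± 0.08), Sec61a1 (−0.36), Serp1 (−0.41), Arf4 (−0.43) and Copa (−0.30). Those called higher included Tuba1a (0.37), Neurod2 (0.37) and Mvk (0.41). Batch a holds 1 library of each group and allows no test. With the set number as a replicate block, batch b gave 4 calls, with Ifi203 and Calcrl lower and Mmp17 and Tmsb10 higher. Of the 118 genes called without the block, 116 had a value in the 18-library fit, and 82 of those had the same direction in batch a. Neurod2 kept a difference of 0.22 in batch a and Tuba1a of 0.16, while Sec61a1 (0.01) did not share the direction. Since the genes were selected by their batch b values, smaller values in batch a do not by themselves set the batches apart. Batch, set and the state of control EV library 2 cannot be told apart with these libraries.

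**Figure D4:**
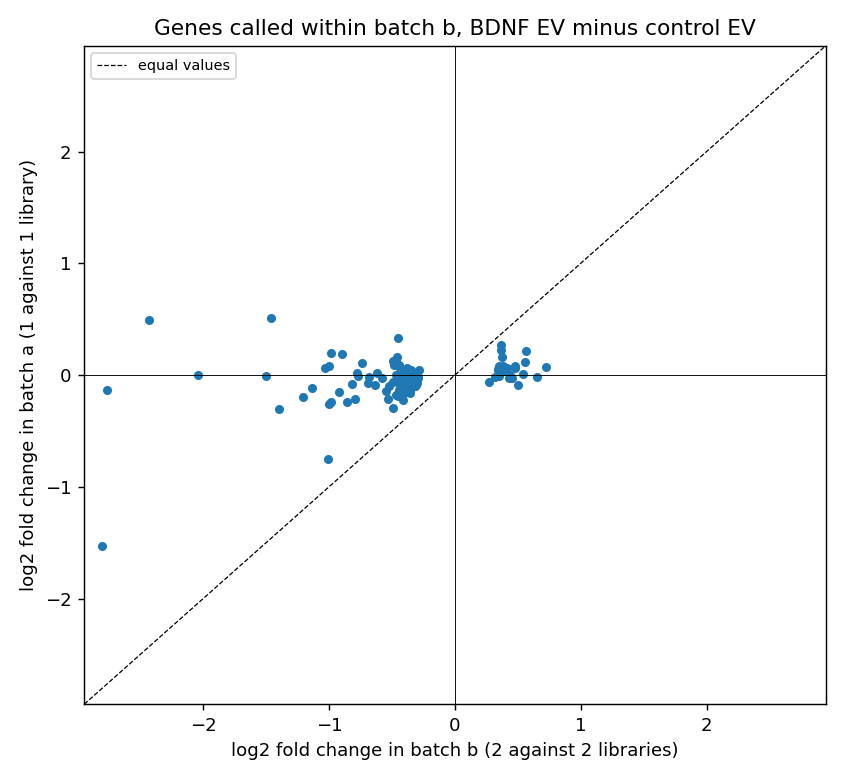
Log2 fold change (BDNF EV minus control EV) in batch a, 1 library against 1, against that in batch b, 2 against 2, for the genes called within batch b; the dashed line marks equal values. Nearly all points lie closer to 0 on the batch a axis, with a median size of 0.08 against 0.44 in batch b. The genes were selected by their batch b values, which favours larger sizes there, so the 2 sizes do not compare the batches.

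Each EV group was also set against the control libraries, which the 2 comparisons share. Against controls 5 genes were called with control EVs (0.0284%) and 4 with BDNF EVs (0.0227%), at unadjusted p under 0.05 1082 (6.14%) and 1277 (7.25%). Slc39a10, a zinc importer, was higher by 0.40 ± 0.04 with control EVs (adjusted p = 9.90e-06) and by 0.47 ± 0.04 with BDNF EVs (adjusted p = 1.29e-06), and Slc30a1, a zinc exporter, was at −0.44 ± 0.06 (adjusted p = 0.00262) and −0.55 ± 0.06 (adjusted p = 6.48e-05). The metal-binding metallothionein gene Mt2 was at −1.27 ± 0.11 (adjusted p = 3.39e-06) and −1.18 ± 0.11 (adjusted p = 2.69e-06). The remaining calls were Gm45774 in both comparisons and 6330403K07Rik with control EVs. Between the EV groups the zinc genes were nearly level, at 0.07 for Slc39a10, −0.11 for Slc30a1 and 0.09 for Mt2.

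The effect of the donor's BDNF treatment, as the difference between the EV groups, was then tested against the effect of BDNF given directly. The 2 effects come from groups that share no library, and from unlike exposures, 24 h of EVs and 20 min of BDNF. Direct BDNF changed 2422 of 17609 genes (13.8%), 1321 higher (7.5%) and 1101 lower (6.25%). For the 1321 genes that rose, the median log2 fold change was 0.30 with direct BDNF and 0.01 between the EV groups, and 53.9% were higher with BDNF EVs. For the 1101 that fell, the medians were −0.22 and 0.02, and 42.9% were lower with BDNF EVs. Over all genes 49.9% had the same sign in both effects, and Pearson's r across the 17609 genes was 0.02, across genes that are not independent. The difference of the 2 effects was called for 589 genes (3.34%), 259 with the EV effect higher (1.47%) and 330 with it lower (1.87%). Of them 527 (89.5%) were also called for direct BDNF and 489 (83.0%) had the larger effect with direct BDNF. The direct effect is itself a term of the difference, so both shares are partly built in. The count was 240 without BDNF EV library 2, 273 without control EV library 2 and 350 without BDNF EV library 3, 386 with the set number as a replicate block, 305 from the 12 libraries of batches a and b, and 51 with no batch term.

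The genes with the smallest p for this difference were mostly those that direct BDNF changed strongly. Npy, the neuropeptide Y precursor, had 5.60 to 9.53 CPM in the 6 control libraries (median 7.61) and 44.4 to 67.8 CPM with direct BDNF (median 60.1). It had 9.56, 7.41 and 5.54 CPM with control EVs and 9.83, 7.75 and 6.90 CPM with BDNF EVs, all close to the control level. The EV effect was 0.14, the direct effect 2.97, and their difference −2.83 ± 0.17 (adjusted p = 5.23e-09). Nnat, the imprinted neuronatin gene, had 928 to 1445 CPM in controls (median 1092) and 2410 to 3619 CPM with direct BDNF (median 3032), but 843, 1037 and 971 CPM with control EVs and 969, 1004 and 1018 CPM with BDNF EVs. Its difference was −1.34 ± 0.09 (adjusted p = 2.40e-09).

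Rin1, a Ras effector, had a direct effect of 1.29 and an EV effect of −0.07, a difference of −1.36 ± 0.14 (adjusted p = 8.84e-06). Dcn, the matrix proteoglycan decorin, fell with direct BDNF, from 49.1 to 81.0 CPM in controls (median 61.6) to 29.9 to 51.0 CPM (median 38.8), and was at −0.03 between the EV groups, a difference of 0.64 ± 0.07 (adjusted p = 8.84e-06). Without the batch term the differences of Rin1 and Dcn were no longer called, at adjusted p of 0.0812 and 0.372. Pcdh11x, a protocadherin gene on the X chromosome, had 45.5, 46.9 and 38.0 CPM with control EVs and 42.5, 30.8 and 28.1 CPM with BDNF EVs. There the EV value (−0.38 ± 0.10, adjusted p = 0.360) and the direct effect (1.08) had opposite signs, with a difference of −1.46 ± 0.12 (adjusted p = 1.23e-06).

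Some of the genes with the smallest p between the EV groups were called for this difference too. The EV values by which they were picked are part of the difference, so these calls are not separate support. By edgeR the direct effect was not called for Ifi203 (0.37, adjusted p = 0.125) or Ppia (−0.14, adjusted p = 0.153). Tuba1a fell with direct BDNF (−0.28, adjusted p = 0.00114), and the difference was 0.58 (adjusted p = 0.00111). The difference was −1.54 for Ifi203 (adjusted p = 0.00149), 0.55 for Ppia (adjusted p = 0.00509) and 0.72 for Syt6 (adjusted p = 0.00349), and −0.65 for Slit2 (adjusted p = 7.78e-05). With no batch term the differences of Ifi203, Ppia and Syt6 were not called, with adjusted p of 0.421, 0.126 and 0.390. Of 21 genes named by rule or after their values were seen that were called for the difference and are reported, 11 were called in every fit that left out 1 EV library. Arc (−1.57) was called in 1 of 6 such fits and Tarbp2 (0.38) in 0 of 6.

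By list, direct BDNF raised 10 of 24 late activity and BDNF response genes, 9 of 15 ERK feedback genes, 11 of 19 neuropeptide precursor genes and 20 of 28 proliferation genes, where the EV comparison called none. Over all genes direct BDNF raised 7.5%. Direct BDNF was tested with 6 libraries a group and the EV comparison with 3. The late and neuropeptide lists share Crh, Scg2, Vgf, Sst, Cort, Npy and Tac1, so their counts are not separate results. The difference was called, with the EV effect lower, for 8 of the 24 late genes, 7 of the 19 neuropeptide genes, 10 of the 28 proliferation genes and 1 of the 15 ERK feedback genes, against 1.87% of all genes. Among those called in every fit that left out 1 EV library were Tac1, the substance P precursor (difference −0.90, adjusted p = 0.00107), the mitotic genes Cenpe (−0.95), Cenpf (−0.78) and Tpx2 (−0.66), the interneuron gene Calb2 (0.73) and the postsynaptic scaffold gene Dlg4 (−0.40). With no batch term Dlg4 was still called (adjusted p = 0.00511), and the other 5 were not (adjusted p of 0.159 for Cenpe to 0.321 for Calb2). For the galanin gene Gal, up by 4.79 ± 0.24 with direct BDNF and at 0.112 to 0.378 CPM in the EV libraries, the difference of −4.60 was lost without control EV library 3 (adjusted p = 0.0814). No immediate early gene was called for direct BDNF or for the difference.

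**Figure D5:**
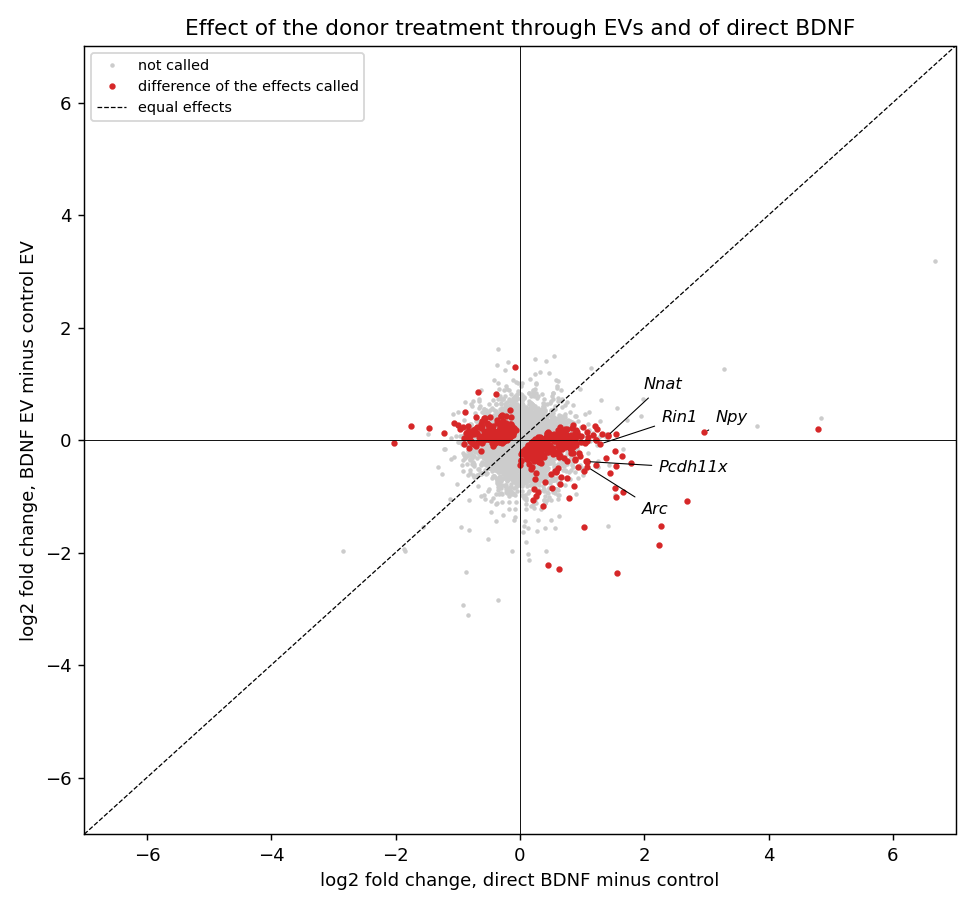
Log2 fold change of each tested gene between BDNF EV and control EV neurons (vertical axis) against that between direct BDNF and control neurons (horizontal axis), with the 589 genes called for the difference in red and a dashed line for equal effects. Of the red genes 489 (83.0%) lie farther from 0 on the horizontal axis, such as Npy (2.97 against 0.14) and Nnat (1.41 against 0.07). Others such as Ptgs2 (0.45 against −2.22) and Ifi203 (0.37 against −1.17) lie farther from 0 on the vertical axis. Both effects are terms of the difference that selects the red genes.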

How the data were processed

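Gene expression was measured by RNA-seq in 18 hippocampal libraries, from 500 ng of RNA with the TruSeq kit v2 and single reads of 50 bp, per the labels' protocols. That kit does not mark strand, so overlapping and antisense genes cannot be told apart. The table deposited by the authors holds raw counts per Ensembl gene, not normalised. The build was mm10 and the tools included cutadapt 1.8.1, CASAVA 1.8 and 1.8.2, and DESeq2, per the submitters' processing notes; aligner and counter were not stated in the sources used here. Symbols and coordinates (GRCm38.p6) came from the reference table and matched 55144 of 55471 entries; 327 without a symbol held 0.0247% of the counts, and 19513 entries were at 0 everywhere. No pair of libraries of the same group was alike within counting noise, pairs across groups were not checked, and 0 per-sample columns were left unused. The small RNA table was not used here.

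Groups were compared with the quasi-likelihood test of edgeR (edgeR 4.0.16, limma 3.58.1, R 4.3.3; robust fit) on all 18 libraries, with group and batch as terms, TMM scaling, a minimum count of 10 in edgeR's expression filter, and Benjamini-Hochberg adjusted p under 0.05. The fit had 11 residual and a median of 11.9 prior degrees of freedom. The difference of effects is BDNF EV minus control EV, minus direct BDNF minus control, in the same fit. SEs come from log2 fold change and F, and values within batch a from log2 CPM with a prior count of 2. With 3 libraries against 3 an exact permutation test of 1 gene cannot go below 0.1 and was not used. The script was tested on simulated counts.

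Named genes, with a mean of at least 2 CPM over the EV libraries, were the 10 uncalled genes with the smallest unadjusted p in each direction, the 2 members of each list with the smallest p, the 5 genes with the smallest p for the difference of effects, and always Bdnf, Ntrk2, Arc, Fos and the host genes of miR-218-5p and miR-690. Predicted genes, clone names and pseudogenes were skipped, and some genes that the rule or the lists hold are not reported here. List members were not held to the 2 CPM minimum. Npas4, Hspa5, Trib3, the genes called within batch b, the zinc genes and other list members given as examples were picked with their values in view. The comparison, members and 27 lists were chosen with earlier results of these data known, and lists were described by counts and medians, with no set test.

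Deviations from group means correlated within sets at 0.631, 0.193 and 0.405 for the EV groups and 0.350 to 0.582 for control and direct BDNF. The set numbers were taken as pairs only in the replicate block, and the main fit held batch and not set. Between sets 2 and 3, both of batch b, the EV groups correlated at 0.354 and 0.322, above the 0.193 within set 2. Set and batch are therefore not separated by this check. Alternatives were RLE and upper-quartile scaling, no filter, no batch term, the replicate block, fewer libraries, each EV library left out, DESeq2 1.42.0, limma voom and, added after seeing the data, edgeR's newer quasi-likelihood method and batch b with the block. miRNA seed-match lists were planned and not run, since target sequences were not used here.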

Additional observations from a re-analysis of the deposited data

Results flagged for a closer look

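The difference between the effect of BDNF EVs over control EVs and the effect of direct BDNF over control was itself tested, and 589 genes passed. It is listed here because the effect of donor treatment through EVs and that of direct BDNF were not alike. The exposures differed, with 24 h of EVs and 20 min of BDNF, and the EV comparison itself held 0 calls. Among the named genes, the EV effect was lower than the direct effect for Npy (−2.83), Ptgs2 (−2.67), Arc (−1.57), Ifi203 (−1.54), Pcdh11x (−1.46), Rin1 (−1.36), Nnat (−1.34), the macrophage marker gene Cd68 (−0.94), Slit2 (−0.65), Asns (−0.47), Ero1l (−0.44), Ccdc186 (−0.39), Hltf (−0.37) and Gfpt1 (−0.27). It was higher for Syt6 (0.72), Dcn (0.64), Tuba1a (0.58), Ppia (0.55), Tubb2b (0.51), the oligodendrocyte gene Bcas1 (0.43) and Tarbp2 (0.38). Values are log2 differences, each with an adjusted p under 0.05 by edgeR. The direct effect was near 0 for Ero1l (−0.0003), Ccdc186 (0.02), Hltf (0.02) and Gfpt1 (0.02). Their differences are therefore nearly the EV fold changes, which were not called and by which these genes were picked.

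Of these 21 genes, Dcn, Ifi203, Nnat, Npy, Pcdh11x, Ppia, Rin1, Slit2, Syt6, Tuba1a and Tubb2b were called in every fit that left out 1 EV library. With the replicate block 13 were called, and from the 12 libraries of batches a and b 11. Asns, Ccdc186 and Ero1l lost the call without control EV library 2, BDNF EV library 2 or BDNF EV library 3, and Cd68 kept it only without control EV library 3.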

How the results depend on the processing

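For BDNF EV against control EV, the count of called genes was 0 with RLE or upper-quartile factors, DESeq2, voom, no batch term, 12 libraries, and the 6 EV libraries with batch or with the replicate block. It was 167 without the filter, 118 in batch b, 4 in batch b with the block, 3 (Ifi203 and Ppia among them) with the newer quasi-likelihood method without the filter, and 0 to 1 with 1 EV library left out. For the difference of effects the 589 genes became 1150 without the filter, 51 without the batch term, 386 with the replicate block (382 shared), 305 with 12 libraries (207 shared), 147 in batch b, 104 in batch b with the block, and 240 to 534 with 1 EV library left out. RLE gave 581, upper quartile 573 (287 higher and 286 lower), DESeq2 732, voom 565 and the newer method 577, or 536 without the filter. The log2 fold change changed sign for Fgf12 (below 0 without control EV library 1, control EV library 2 or BDNF EV library 3, in a range of −0.017 to 0.059 with 1 library left out) and Rin1 (above 0 without BDNF EV library 3, in a range of −0.12 to 0.011). Of the named genes' fold changes, 606 values counted as the same, 37 passed the threshold and 17 moved. The same means that direction and side of the threshold were kept. For batch a alone it means only a value within 1 SD between sets of the main value, and the 17 that moved are batch a values. Of the list medians 429 kept within the spread and 39 moved. The causes were not tested. The pairing by set left the main comparison at 0 calls, while calls within batch b went from 118 to 4 and those for the difference from 589 to 386. With 3 libraries a group, 1 of them in batch a, changes smaller than the intervals given were not detectable, and control EV library 2 and BDNF EV library 2 each decide a large part of the unadjusted counts. The seed-match alternative was not run.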
